A study of Mus musculus with 2 samples.

Results

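Collagen genes were examined in the pancreas after loss of Nrdc, the gene of the metalloendopeptidase nardilysin, from cells that have expressed Ptf1a. Members were all genes whose symbol is Col, a number, the letter a and a number (such as Col1a1). There were 44 of them among 22907 genes named on the arrays through a RefSeq accession, with 67 probes. The WT group was the pancreas of a C57BL/6 male aged 5 weeks. The Nrdc-cKO group was the pancreas of a C57BL/6 male aged 5 weeks with Ptf1a-Cre and Nrdcflox/flox. Whether the WT mouse carried Cre or a loxP-flanked allele was not given in the sources used here. Ptf1a is active in pancreatic progenitors and acinar cells, so the Cre of this model is not driven by a gene of fibroblasts or stellate cells. Each group had 1 array, so no difference could be tested or given an error over animals.

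Collagens are the main fibrous proteins of the extracellular matrix. Chains wind into a triple helix in the endoplasmic reticulum, are secreted, trimmed and crosslinked, and then form fibrils, sheets or fine filaments according to their type. In the pancreas, fibrillar collagens are known as products of fibroblasts and activated stellate cells, and their build-up is the hallmark of fibrosis, while type IV collagen forms the basement membrane under acini, ducts and vessels.

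Values are log2 processed signals from which the 75th percentile of the same array was taken away, and a difference is Nrdc-cKO minus WT of these levels. A gene counted as measured when a probe was well above background on both arrays, and 2-fold (1 on the log2 scale) was the threshold for naming a direction. Directions thus compare a gene with the other genes of its array. Nrdc, the targeted gene, stood at 1.93 for WT and -1.28 for Nrdc-cKO, a difference of -3.21 from 1 probe. The labels do not name the deleted part of the gene, so whether this probe lies in it is unknown. The tissue label was borne out by 13 of 13 acinar markers, all measured on both arrays. On these arrays 46.3% of non-control spots were well above background for WT and 60.3% for Nrdc-cKO. Between repeat spots of a probe, the SD of the difference had a median of 0.032 (286 probes), an error that leaves out animal, dissection and labelling.

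Collagen genes were mostly higher in the Nrdc-cKO pancreas. Of the 44, 26 were measured on both arrays, and 15 of these (57.7%) were at least 2-fold higher, against a background of 12.8% of all 12997 measured genes. A further 5 (19.2%) were at least 2-fold lower, close to the background of 17.3%. The median collagen difference was 1.29, which is 2.45-fold, and the median of all genes was -0.18. The distance between these medians, 1.47, was the same under each scaling that multiplies an array by a constant, and it was 0.99 with normexp and quantile scaling. All 15 higher genes kept their direction in each of the 12 alternatives that gave them a value, and 9 of them stayed past 2-fold throughout. Only 1 of the 5 lower genes, Col7a1, kept its direction throughout, and Col15a1 and Col26a1 had another probe on the opposite side. The split of 15 higher and 5 lower was 21 and 1 with scaling to the spike-in probes, which raises every gene by 1.88, and 20 and 3 in the authors' value table. All genes shifted too, from 1666 higher and 2250 lower to 10331 and 118 under spike-in scaling and 2888 and 1074 in the value table.

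**Figure D1:**
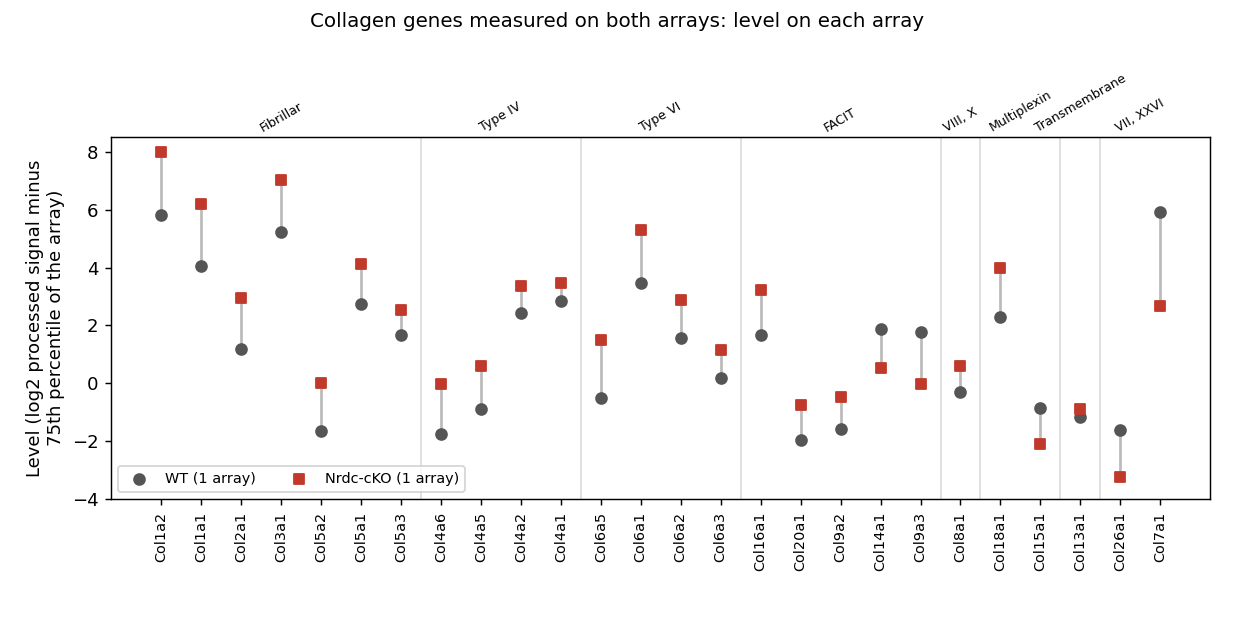
Level of each of the 26 collagen genes measured on both arrays (log2 processed signal minus the 75th percentile of the array), by class, with 1 array per group: grey circles for WT, red squares for Nrdc-cKO, joined by a line. Nrdc-cKO lies above WT for 21 genes and below for Col14a1, Col9a3, Col15a1, Col26a1 and Col7a1, of which all but Col7a1 turn with spike-in scaling; levels of different genes come from different probes and are not comparable.

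The fibrillar collagens, which build the banded fibres that carry tension, were higher in all 7 measured members, 6 of them at least 2-fold, with a median of 1.78. No alternative turned any of them. Beside the counts of this class and of those below, the shares of all measured genes were 12.8% higher and 17.3% lower by 2-fold or more. Col1a2, a chain of type I collagen, the bulk collagen of scar and tendon, stood at 5.81 for WT and 7.99 for Nrdc-cKO, a difference of 2.18 (4.53-fold). Col1a1, its partner chain, stood at 4.07 and 6.20, a difference of 2.13 (4.39-fold), with its 2 probes at 2.09 and 2.18. The chains were 0.05 apart, and up to 0.25 apart in the alternatives, which is less than the median range of 0.27 between probes of the same gene over all genes. Col3a1, which encodes type III collagen of distensible tissue and early repair, stood at 5.23 and 7.01, a difference of 1.78.

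Type V collagen is incorporated into type I fibrils and limits their width. Col5a2 stood at -1.65 for WT and 0.01 for Nrdc-cKO, a difference of 1.66, while Col5a1 stood at 2.74 and 4.12, a difference of 1.37. The order of these chains depended on the processing, since Col5a2 minus Col5a1 was 0.29 here and -1.12 with normexp and 75th percentile scaling. Col5a3, the chain of a minor form, stood at 1.68 and 2.53 and was the fibrillar member short of 2-fold, at 0.85. Its other probe passed background for Nrdc-cKO alone and gave no bound. Col5a2 and Col3a1 are neighbours, with 0 protein-coding genes between them in the RefSeq gene order, and the difference of Col5a2 minus that of Col3a1 was -0.12, or -0.69 with quantile scaling, -0.66 with loess and -1.63 with normexp and 75th percentile scaling. Col5a2 was also among the dimmer probes, with a processed signal of 22.5 on the WT array, and its difference was 0.66 under normexp with 75th percentile scaling, below 2-fold.

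Col2a1, best known as the main collagen of cartilage, stood at 1.18 for WT and 2.96 for Nrdc-cKO, a difference of 1.78 (3.45-fold) from 1 probe, with processed signals of 160.3 and 1775. Only 3 of 10 chondrocyte markers were measured, and their median was -0.84, or 1.04 with spike-in scaling and 1.18 with bright probes only, where Sox9, also a duct marker, was the sole gene left. Acan, Matn1, Matn3, Hapln1 and Ucma were not well above background on either array. Comp and Cnmd were detected in Nrdc-cKO alone, at least 1.05-fold and 1.16-fold higher. Summed over the 10 markers, most of them not measured on both arrays, the level in multiples of the 75th percentile signal was 3.44 for WT and 2.83 for Nrdc-cKO. The order of these sums depended on the scaling, since the unscaled signals summed to 243.9 for WT and 643.0 for Nrdc-cKO. The remaining fibrillar members were dim. Col27a1, a fibrillar collagen of cartilage, passed background for Nrdc-cKO alone, with signals of 2.29 and 95.1, and was at least 2.60-fold higher. Col11a1 and Col11a2, minor fibrillar chains of cartilage, passed background for Nrdc-cKO alone with no bound above 1, and Col24a1 was not well above background on either array.

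Upstream sequences are shown for fibrillar members that were higher on the Nrdc-cKO array, Col1a2 and Col3a1, and for Col7a1, which was lower. They are the 250 bases before the annotated gene start in RefSeq, build GRCm38.p6, plus strand: Col1a2 at chr6:4505368-4505617, Col3a1 at chr1:45311288-45311537 and Col7a1 at chr9:108953336-108953585. Capitals mark matches on either strand to the TATA box core TATAAA, to the CCAAT box, whose letters are its name, or to the Sp-factor core GGGCGG, and no match shown overlaps another.
Col1a2: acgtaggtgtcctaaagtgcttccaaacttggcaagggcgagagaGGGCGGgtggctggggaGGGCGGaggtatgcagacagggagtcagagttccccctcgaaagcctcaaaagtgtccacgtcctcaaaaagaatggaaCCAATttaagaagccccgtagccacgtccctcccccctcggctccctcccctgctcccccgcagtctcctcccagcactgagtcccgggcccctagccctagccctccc
Col3a1: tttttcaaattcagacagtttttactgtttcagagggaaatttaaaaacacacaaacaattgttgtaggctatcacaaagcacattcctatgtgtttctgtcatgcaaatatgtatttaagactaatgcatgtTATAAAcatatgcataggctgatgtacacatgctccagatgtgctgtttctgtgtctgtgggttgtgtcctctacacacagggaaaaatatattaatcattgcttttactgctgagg
Col7a1: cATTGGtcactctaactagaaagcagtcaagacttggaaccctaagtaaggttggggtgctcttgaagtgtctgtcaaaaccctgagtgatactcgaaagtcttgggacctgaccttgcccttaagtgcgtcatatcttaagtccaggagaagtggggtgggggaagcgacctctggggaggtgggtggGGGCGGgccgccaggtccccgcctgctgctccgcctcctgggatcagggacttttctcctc

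The fibrillar pair did not share these letters. Col1a2 held GGGCGG at -205 and -188 and CCAAT at -109 from its start, and its window was 62.0% G or C. Col3a1 held TATAAA at -117 and neither of the others, in a window of 35.2% G or C. Col7a1 held CCAAT on the opposite strand at -249 and GGGCGG at -61. The table listed 38 windows for 35 collagen genes, Col1a1 not among them. GGGCGG was in 57.9% of the collagen windows and 32.7% of all 32851 windows of this length, CCAAT in 34.2% and 33.8%, and TATAAA in 13.2% and 12.4%. The collagen windows were also richer in G or C, with a median of 59.0% against 52.4%. Of the 12 genes at least 2-fold higher that had a window, 9 held GGGCGG, as did 1 of the 2 such lower genes. These matches describe letters, not binding.

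**Figure D2:**
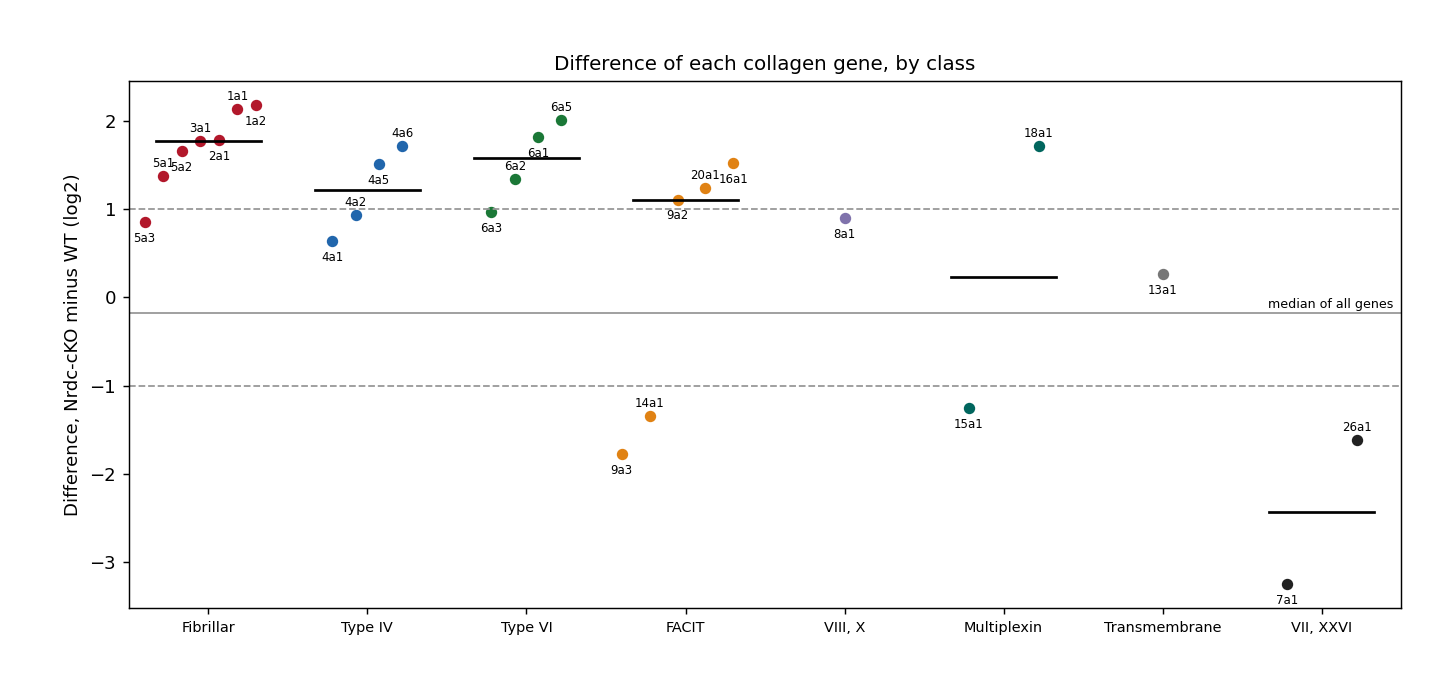
Difference of each measured collagen gene, Nrdc-cKO minus WT on the log2 scale, 1 array per group, in 8 structural classes; gene names are written without Col, black bars are class medians where at least 2 genes were measured, dashed lines mark 2-fold and the grey line is the median of all genes. All fibrillar, type IV and type VI points lie above 0 under all alternatives, while FACIT, multiplexin and type VII and XXVI collagens hold the points below 0, of which Col7a1 alone stays below 0 with spike-in scaling.

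Type IV collagen, the sheet-forming collagen of basement membranes, was higher by less. Of 4 measured chains, 2 were higher and 0 lower by 2-fold or more. The class median was 1.22. Col4a1 and Col4a2, the chains found in nearly all basement membranes, were both short of 2-fold. Col4a1 stood at 2.84 for WT and 3.48 for Nrdc-cKO, a difference of 0.64 (1.56-fold). Col4a2 stood at 2.44 and 3.37, a difference of 0.93 (1.91-fold). Both were past 2-fold under spike-in scaling, under normexp followed by 75th percentile scaling, and in the value table.

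Col4a6 stood at -1.74 for WT and -0.03 for Nrdc-cKO, a difference of 1.72 (3.29-fold), and Col4a5 at -0.90 and 0.61, a difference of 1.51 (2.85-fold). These chains occur together in basement membranes of smooth muscle and some epithelia. Their probes were dim, with WT signals of 21.1 and, for the measured probe of Col4a5, 38.01, and with normexp and 75th percentile scaling the order of the class turned, with Col4a6 at 0.84 and Col4a5 at 0.97 below Col4a1 at 1.05 and Col4a2 at 1.30. The other Col4a5 probe was at least 1.22-fold higher. Col4a3 and Col4a4, chains of specialised basement membranes such as that of the kidney glomerulus, were detected in Nrdc-cKO alone, with Col4a4 at least 1.17-fold higher and no bound for Col4a3.

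The chains are encoded as neighbouring pairs with 0 protein-coding genes between them. Col4a2 minus Col4a1 was 0.29, and Col4a6 minus Col4a5 was 0.20, or -0.13 with normexp and 75th percentile scaling and 0.46 with no filter. Between the pairs, Col4a5 minus Col4a1 was 0.87, but it was -0.08 under normexp and 75th percentile scaling and 0.15 under normexp and quantile scaling. The fibrillar median exceeded the type IV median by 0.55, and by 0.55 to 0.995 in the alternatives, but the classes overlapped, with fibrillar differences from 0.85 to 2.18 and type IV differences from 0.64 to 1.72. With 1 array per group this distance between classes has no test.

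Type VI collagen, which forms beaded filaments between cells and the fibrous matrix and is abundant around fat cells, had 3 of 4 measured chains at least 2-fold higher and a median of 1.58. Col6a1, a core chain, stood at 3.47 for WT and 5.28 for Nrdc-cKO, a difference of 1.82 (3.52-fold). Col6a2, the chain it assembles with, stood at 1.55 and 2.90, a difference of 1.34. Col6a3, the largest core chain, stood at 0.20 and 1.16, a difference of 0.96, and its probes were apart at 0.45 and 1.48. Only the brighter of these probes was past 2-fold.

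The alternative type VI chains went different ways. Col6a5 stood at -0.52 and 1.49, a difference of 2.01 (4.04-fold), the highest of the class, with probes at 1.76 and 2.27. Col6a4 was the sole collagen detected on the WT array only, with an unscaled signal of 22.7 there and 7.21 on the Nrdc-cKO array. After scaling, which itself adds -1.68 to every log2 difference, it was at least 5.81-fold lower. No bound is given for Col6a4 with the other scalings. Its other probe was not well above background on either array. Col6a6 was detected in Nrdc-cKO alone, with no bound above 1.

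FACIT collagens, which sit on the surface of fibrils and link them to other matrix, were split, with 3 of 5 measured members at least 2-fold higher and 2 lower. Their median, 1.11, was -1.34 with bright probes only, where 3 genes were left. Col16a1, found on fibrils and near basement membranes, stood at 1.69 for WT and 3.21 for Nrdc-cKO, a difference of 1.52 (2.87-fold). Col20a1 stood at -1.97 and -0.73, a difference of 1.24, and Col9a2, a cartilage chain, at -1.58 and -0.47, a difference of 1.11. Both rested on dim probes, with WT signals of 18.1 and 23.7, and both stayed positive but below 2-fold with normexp, at 0.24 for Col20a1 and 0.29 for Col9a2 with 75th percentile scaling.

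Col14a1, a FACIT collagen that regulates fibril growth, stood at 1.86 for WT and 0.52 for Nrdc-cKO, a difference of -1.34, or 0.54 with spike-in scaling. Before scaling it was slightly brighter on the Nrdc-cKO array, with signals of 257 and 326. Col9a3, a partner chain of Col9a2 in type IX collagen, stood at 1.76 and -0.02, a difference of -1.78, or 0.10 with spike-in scaling, and Col9a3 minus Col9a2 was -2.89. This gap was -1.54 with normexp and 75th percentile scaling and -1.45 with no filter, and the other Col9a3 probe was detected in Nrdc-cKO alone with no bound. The unscaled signals of the measured Col9a3 probe were 240 and 225. Col12a1 and Col22a1 were detected in Nrdc-cKO alone, Col22a1 at least 1.17-fold higher, and Col9a1 and Col19a1 on neither.

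Multiplexins are collagens of the basement membrane zone whose ends release antiangiogenic fragments. Col18a1, the source of endostatin, stood at 2.28 for WT and 3.998 for Nrdc-cKO, a difference of 1.72 (3.29-fold), and stayed past 2-fold in all 12 alternatives. Col15a1, its relative around capillaries and muscle, had probes that disagreed. The measured probe stood at -0.84 and -2.10, a difference of -1.26, or 0.63 with spike-in scaling. The other, detected in Nrdc-cKO alone, was at least 1.56-fold higher. No direction is given for Col15a1.

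Among the collagen genes measured on both arrays, Col7a1 had the largest difference, and it was lower. Type VII collagen forms the anchoring fibrils that tie epithelial basement membranes to the tissue beneath, as in skin. Col7a1 stood at 5.92 for WT and 2.66 for Nrdc-cKO, a difference of -3.26 (9.55-fold lower) from 1 probe. Its signal was also lower before scaling, at 4277 and 1439, and it stayed at least 2-fold lower in all 12 alternatives, of which spike-in scaling left it nearest to 0, at -1.37. Of the 29 collagen probes measured on both arrays, 27 were brighter on the Nrdc-cKO array before scaling, and the probes of Col7a1 and Col9a3 were the other 2.

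Acinar markers were lower as well. All 13 were lower by 2-fold or more, against 17.3% of all measured genes. Their median was -2.29, or -0.40 with spike-in scaling and -0.73 with quantile scaling. Those past 2-fold were 4 with spike-in scaling, 6 with quantile scaling, 7 with loess and 6 with normexp and quantile scaling. Cel, Cela2a, Cela3b, Cpa1 and Ctrb1 turned above 0 with spike-in scaling. All of these but Cel also turned with quantile scaling and with normexp and quantile scaling. Summed over the list, the level in multiples of the 75th percentile signal was 49523 for WT and 10816 for Nrdc-cKO. The part of acinar cells in the Col7a1 value was not tested. Lamb3, a chain of the laminin that type VII collagen binds, was lower too, at -1.33, or 0.56 with spike-in scaling. This gene was chosen by a rule for basement membrane partners, given below.

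Other collagens were near the limit of detection. Col26a1 had a measured probe at -1.62 for WT and -3.23 for Nrdc-cKO, a difference of -1.61, or 0.27 with spike-in scaling, with signals of 23.1 and 24.3. Its other probe had an undetected signal of 5.81 for WT and 131.6 for Nrdc-cKO and was at least 3.60-fold higher, so the probes disagreed and no direction is given. Col8a1, a network collagen of vessel walls, stood at -0.28 and 0.61, a difference of 0.90. Its partner Col8a2 was at least 1.13-fold higher. Col13a1, a transmembrane collagen, stood at -1.15 and -0.89, a difference of 0.26 that turned to -0.16 with normexp and 75th percentile scaling and to -0.21 with no filter. Col17a1, a hemidesmosome protein, and Col23a1 passed background for Nrdc-cKO alone with no bound above 1. Col10a1, a collagen of hypertrophic cartilage, Col25a1 and Col28a1 were not well above background on either array.

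In all, 11 of the 38 collagen genes detected on either array (28.9%) were detected in Nrdc-cKO alone, against 17.7% of all 16044 detected genes. A bound past 2-fold was reached by 1 of the 11, beside 630 of all 2834 genes detected in Nrdc-cKO alone. For probes at the floor of both arrays, the median difference was -1.56 (23023 probes), made up of 0.12 before scaling and -1.68 from the scaling.

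**Figure D3:**
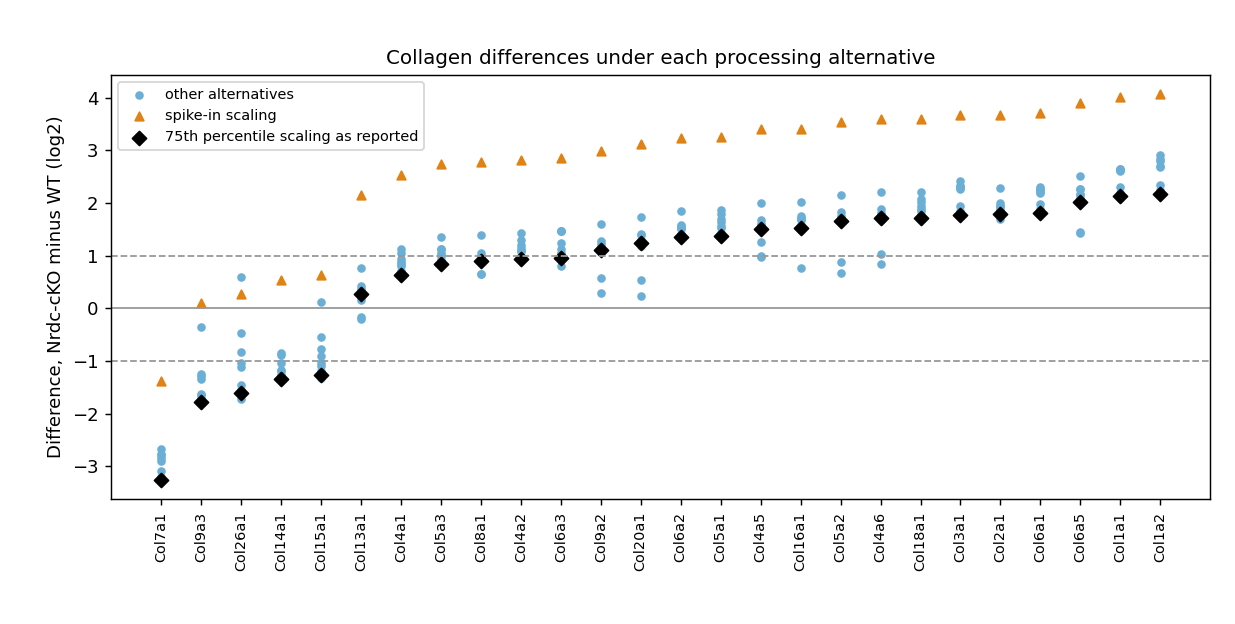
Difference of each of the 26 measured collagen genes (Nrdc-cKO minus WT, log2) under each processing alternative: black diamonds for the reported scaling, orange triangles for spike-in scaling, blue points for the others, dashed lines at 2-fold. The 15 genes from Col9a2 to Col1a2 stay above 0 throughout and Col7a1 stays below, while Col9a3, Col26a1, Col14a1, Col15a1 and Col13a1 cross 0.

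Markers of collagen-producing stroma were counted in the same way. For these and the other cell type lists below, the shares of all measured genes were 12.8% higher and 17.3% lower. Of 17 measured fibroblast and stellate cell markers (20 listed), 15 were higher and 0 lower by 2-fold or more. Their median was 1.41, and the summed level was 141 for WT and 450 for Nrdc-cKO. Most of each sum came from Dcn, which stood at 6.45 for WT and 8.14 for Nrdc-cKO. Of this list, Lrat, an enzyme of retinoid storage in quiescent stellate cells, was not well above background on either array. The smooth muscle and pericyte list had 6 of 11 higher and 1 lower, with a median of 1.16, or 0.64 with normexp and quantile scaling. Its summed levels were 115 and 79.4, and most of the WT sum came from the lower gene, Mcam. Before scaling, the summed signals were 8141 for WT and 18066 for Nrdc-cKO. Mcam, the brightest of the list, stood at 6.53 for WT and 4.98 for Nrdc-cKO, a difference of -1.55, or 0.33 with spike-in scaling. Endothelial markers had 5 of 13 higher and 0 lower, with a median of 0.81 and summed levels of 42.1 and 81.5.

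Macrophage markers had 11 of 13 higher and 0 lower (median 2.25, summed levels of 30.45 and 104), and islet endocrine markers 12 of 14 and 0 (median 3.48, 386 and 2992). Duct markers had 4 of 10 higher (40.0%) and 2 lower (20.0%, near the share of all genes), with a median of 0.74 and summed levels of 63.9 and 188.

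Fat cell markers had the largest ratio of summed levels. Of 13, 3 of the 5 measured were higher and 1 lower by 2-fold or more, and the median was 2.51. The other 8 passed background for Nrdc-cKO alone, all with bounds past 2-fold. Summed over all 13, the level was 14.4 for WT and 473 for Nrdc-cKO. Schwann cell and nerve markers had 2 of 4 measured higher and 0 lower, with a median of 0.39, or 0.09 with normexp and 75th percentile scaling, and summed levels of 4.53 and 9.07. Mesothelial markers had 3 of 6 higher and 0 lower, or 1 of 6 with either normexp setting, with a median of 0.997, or 0.25 with bright probes only, and summed levels of 13.97 and 20.35. In whole tissue, more cells of a type and more RNA per cell cannot be told apart, and the part of any of these cell types in the collagen values was not tested.

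Genes that act on collagen after translation were not uniformly higher. Of 23 measured genes of folding, modification and secretion, 5 were higher and 5 lower by 2-fold or more (21.7% each way, against 12.8% and 17.3% of all genes), and the median was 0.22, or -0.12 with normexp and 75th percentile scaling and -0.04 with bright probes only. The highest were Fkbp7 (1.76) and Fkbp10 (1.54), prolyl isomerases of the endoplasmic reticulum of which Fkbp10 assists procollagen. The lowest were the cyclophilin Ppib (-2.26) and the protein disulfide isomerase P4hb (-1.99), which is also a subunit of prolyl 4-hydroxylase. Both are general folding factors of secretory cells. Both stayed below 0 in all alternatives, but spike-in scaling left Ppib at -0.37 and P4hb at -0.11. Serpinh1, the collagen chaperone Hsp47, named after its value was seen, stood at 2.72 for WT and 4.02 for Nrdc-cKO, a difference of 1.30.

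Procollagen cleavage and crosslinking genes were closer to the collagens. Of 11 measured, 6 (54.5%) were higher and 0 lower by 2-fold or more, against 12.8% and 17.3% of all genes. The median was 1.46, or 0.78 with no filter. Pcolce2, an enhancer of procollagen C-proteinase, was at 2.23 and lysyl oxidase, Lox, which starts crosslinking, at 1.98. The lowest were the proteinase Tll1 at -0.89, which turned with loess and spike-in scaling, and the lysyl oxidase relative Loxl2 at 0.07, with probes from -0.46 to 0.60.

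Proteins that bind fibrils had 11 of 14 measured genes (78.6%) higher and 0 lower by 2-fold or more. Their median was 1.41. Dcn, Lum and Fbln1 are also among the fibroblast and stellate cell markers above. Of all genes, 12.8% were higher and 17.3% lower. The proteoglycan lumican, Lum, was at 2.33 and fibronectin, Fn1, at 1.88. The proteoglycan biglycan, Bgn, was the lowest at -0.50, or 1.38 with spike-in scaling, followed by fibromodulin, Fmod, at 0.87. Basement membrane partners of type IV collagen had 9 of 16 (56.2%) higher and 1 (6.2%) lower, with a median of 1.11. Sparcl1, a matricellular protein, was among the highest (1.77), and Lamb3 (-1.33) and agrin, Agrn (0.38, or -0.18 with no filter), were the lowest.

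**Figure D4:**
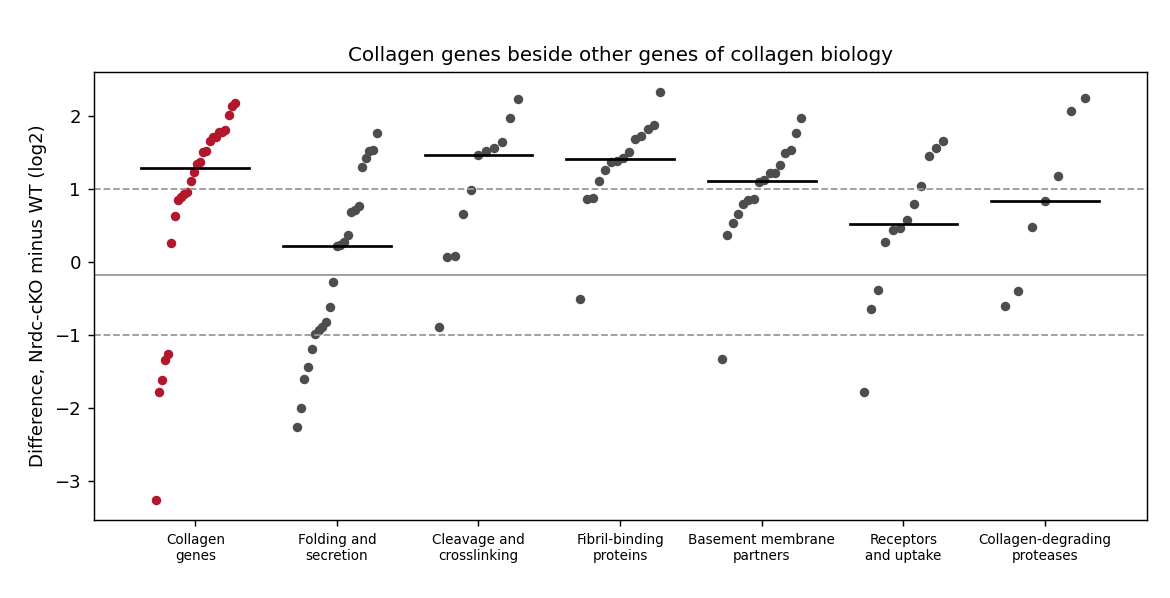
Differences (Nrdc-cKO minus WT, log2, 1 array per group) of the measured collagen genes (red) and of 6 lists of genes of collagen biology (grey), sorted within each list; black bars are medians, dashed lines mark 2-fold and the grey line is the median of all genes. The cleavage, fibril-binding and basement membrane lists have medians from 1.11 to 1.46, beside 1.29 for collagens, whereas the folding list has a median of 0.22, which turns below 0 with normexp and 75th percentile scaling and with bright probes only.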

How the data were processed

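Each array was an Agilent 1-colour (Cy3) array of total RNA. The deposited scanner files gave processed intensities, corrected for background within the array and not normalized between arrays, with flags for outliers, saturation and signal well above background, per the file headers. Feature Extraction was version 12.0.3.1 by the file headers, whereas the submitters' processing notes name 11.5.1.1. A value table that the authors deposited held these intensities times a constant, 4.37 for WT and 1.92 for Nrdc-cKO, with medians of 42.5 and 66.0 and no centring. The origin of these constants was not given in the sources used here.

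Of 59305 non-control spots, those flagged as outliers on either array (80 and 74) were left out, repeat spots were averaged on the log2 scale, and the 75th percentile over all 56604 probes was subtracted. No spot was saturated. A probe was detected if a share of 0.5 or more of its spots passed the background flag. A gene's value averages the differences of its probes that were detected on both arrays, and 23 of the 26 measured collagen genes rested on 1 such probe. Of the 3 with more, 0 had probes of opposite sign, though probes detected on a single array disagreed with the measured ones for Col15a1 and Col26a1. A gene detected on a single array was given a bound against the higher of the dim probe's signal and the lowest detected signal of that array. Accessions were matched to a RefSeq table (GRCm38.p6), which named 91.9% of 35885 probes with an accession. The array design refers to mm9, so gene coordinates are not given. Alternatives, among them other scalings and filters and normexp with an offset of 50 on the median and background signals, used limma 3.58.1 in R 4.3.3, and the gene summary was tested on simulated data.

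Every collagen gene is named, with Nrdc and the 2 highest and 2 lowest measured genes of each list of collagen biology, except 1 gene that is not reported here. The members and lists were chosen with earlier results of these data known.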

Additional observations from a re-analysis of the deposited data

How the results depend on the processing

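No paired analysis was possible because the design has 1 array per group, and no replicate could be left out. Values of collagen medians and differences below are called moved when they shifted by at least 0.27, the median range over probes of the same gene. The cause was not tested unless named.

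The collagen median, 1.29, was 3.18 under spike-in scaling and 1.79 for the value table. It was 1.01 for normexp followed by 75th percentile scaling, 0.95 for normexp followed by quantile scaling, 0.70 without a filter on dim probes and 0.87 with genes on 1 array at their bound. The fibrillar median, 1.78, was 3.66 and 2.27 in the first 2 of these. The type IV median, 1.22, was 3.11 and 1.72 in them, 0.79 with bright probes only or with bounds, and 0.93 with Col7a1, Col15a1, Col17a1 and Col18a1 added to the class. The distance of fibrillar from type IV, 0.55, was 0.88 with normexp and 75th percentile scaling, 0.995 with bright probes only and 0.84 with the widened class.

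The number of collagen genes at least 2-fold lower, 5, was 1 under spike-in scaling. It was 3 for the value table, with either normexp setting or with bright probes only, and 9 with no filter, which adds probes at the floor. By construction, 4-fold left 3 higher and 1 lower genes. The 15 higher genes ranged from 11 (bright probes) to 21 (spike-in) elsewhere. Spike-in scaling turned Col9a3 (0.10), Col15a1 (0.63), Col26a1 (0.27) and Col14a1 (0.54), and no filter turned Col15a1 (0.12) and Col26a1 (0.60), through their other probes. The median of all genes shifted by 1.88 under spike-in scaling, by 0.50 for the value table, by -0.28 without a filter and by 0.06 to 0.27 with the other scalings.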

Other observations

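Genes that bind or take up collagen were less different than the collagens. Of 12 measured collagen receptors and uptake genes, 4 (33.3%) were higher and 1 (8.3%) lower by 2-fold or more. Their median was 0.53. Of all genes, 12.8% were higher and 17.3% lower. The adhesion receptor Adgrg6, which binds type IV collagen, was at 1.65 and Antxr1, a receptor for collagen VI fragments, at 1.56. The lowest were Gp6, the platelet collagen receptor, at -1.78, or 0.10 with spike-in scaling, and Adgrg1, which binds type III collagen, at -0.63, or 1.25 with spike-in scaling. The collagen-activated kinases, named after their values were seen, stood at 1.46 for Ddr2, the form of mesenchymal cells, and 0.58 for Ddr1, the form of epithelial cells.

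Of 17 collagen-degrading proteases, 7 were measured, 3 of them (42.9%, against 12.8% of all genes) higher and 0 lower by 2-fold or more. Their median was 0.84, or 0.49 with no filter. The gelatinase Mmp2 was at 2.25 and cathepsin K, Ctsk, at 2.07. The lowest were cathepsin L, Ctsl, at -0.60, which turned with quantile, loess and spike-in scaling and with normexp and quantile scaling, and Prep at -0.39, which turned with spike-in scaling and in the value table. A further 6 passed background for Nrdc-cKO alone, 3 of them past 2-fold and named after their values were seen: matrilysin, Mmp7, at least 8.25-fold, the membrane-bound collagenase Mmp14 at least 5.42-fold and stromelysin, Mmp3, at least 3.59-fold higher.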
